A study of Mus musculus with 56 samples.

Results

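The first 4 h without food by night were examined in visceral adipose tissue (VAT) of mice on daytime-restricted feeding (DRF). Of 56 mRNA libraries in 14 groups of 4 mice, 8 were used for this comparison: 4 from DRF mice at zeitgeber time (ZT) 12, when lights went off and food was taken away, and 4 from DRF mice at ZT16. Each library came from another mouse, all of them C57BL/6J females aged 9 weeks, kept in 12 h of light and 12 h of dark and on the regimen for 7 days. No transgene or drug is named for any group, and the labels tell the ZT12 from the ZT16 mice by hour of collection. Further comparisons were made with mice on nighttime-restricted feeding (NRF), which ate in the dark: NRF ZT12 to ZT16 (4 and 4 mice) covers the same hours with food just given, and NRF ZT0 to ZT4 (4 and 4 mice) covers the hours after food was taken away at lights on.

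White fat stores triglyceride in the fed state, when insulin favours glucose uptake, lipoprotein lipase activity and fat synthesis and restrains lipolysis. When food is absent, insulin falls, adipose triglyceride lipase and hormone-sensitive lipase release fatty acids to the blood, and part of these is re-esterified on glycerol 3-phosphate that is made through phosphoenolpyruvate carboxykinase (glyceroneogenesis). FOXO transcription factors, which insulin keeps out of the nucleus, and PPAR receptors, which bind fatty acids, are known to act on many of the genes involved. In mice fed at night this switch falls in the light phase, and in DRF mice food is lost when the animals are active.

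Whole read numbers were recovered from the deposited values, and levels are given as CPM (reads of a gene over an effective size of its library, which the deposited values imply and which is not the total of its reads). These levels compare mice within a gene and not genes with each other. The 8 libraries held 33.4 to 41.02 M reads, and their effective sizes were 34.04 to 43.4 M. A single read was worth 0.0230 to 0.0294 CPM. Their deviation from the mean of their group (root mean square over genes, log2 scale) was 0.167 to 0.206, within the 0.141 to 0.611 over all 56 libraries, whose upper end came from DRF libraries at ZT8 and ZT0. Summed adipocyte markers were 23665 to 30379.5 CPM at ZT12 and 26888 to 31337 CPM at ZT16, with all 10 detected. Mitochondrially encoded genes took 5.24 to 5.97% of CPM at ZT12 and 5.81 to 6.89% at ZT16. These shares and the adipocyte sum hold abundant genes (Fabp4 and Cfd among the markers) whose exon length was taken from the annotation and could not be checked against whole reads. The RNA is from whole tissue, so fewer cells of a type and less RNA per cell cannot be told apart.

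From ZT12 to ZT16, 362 genes rose and 629 fell under DRF of 15736 tested (limma, Benjamini-Hochberg adjusted p under 0.05), a background of 6.30% called, 2.30% rising and 4.0% falling. At least 2-fold on the log2(CPM + 1) scale were 40 of the rises and 59 of the falls. The median change was 0.55 for the genes that rose, -0.50 for those that fell and -0.01 over all genes tested. Protein-coding genes made up 88.1% of the genes that rose, 97.3% of those that fell and 87.8% of all tested. The ZT12 and ZT16 mice did not overlap in 325 of the 362 genes that rose and 576 of the 629 that fell. They did not overlap in 2591 of all 15736 genes tested, so absence of overlap alone does not set a gene apart. Without 1 library of the 8 the count lay between 520 (without ZT12 mouse 1) and 885 (without ZT16 mouse 4), with 591 without ZT16 mouse 1 and 603 without ZT16 mouse 3. It was 1548 when the 2 DRF libraries of other hours that stood apart, ZT8 mouse 1 and ZT0 mouse 4, were kept out of the shared estimate of spread.

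The largest rise was in Pck1 (chr2:173153048-173159273, + strand, GRCm38), the cytosolic phosphoenolpyruvate carboxykinase of glyceroneogenesis. It measured 42.3, 329, 121 and 91.1 CPM in the 4 ZT12 mice and 1129, 1265, 1167 and 1322 CPM in the 4 ZT16 mice. All ZT16 mice lay above all ZT12 mice, and the ZT12 mice spread widely while the ZT16 mice lay close together (log2 change 3.44, SE 0.65, adjusted p = 0.00057). Angptl4 (chr17:33773750-33781830, - strand), which encodes a secreted inhibitor of lipoprotein lipase, rose from 113, 147, 102 and 98.01 CPM to 659, 704, 491 and 627 CPM. The mean was 5.39-fold higher at ZT16, and the groups were far apart (log2 change 2.43, SE 0.32, adjusted p = 2.2e-06).

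Txnip (chr3:96557957-96561883, + strand), whose product binds thioredoxin and restrains glucose uptake, had even levels within each hour. Its values were 336, 353, 332 and 359.5 CPM at ZT12 and 1517, 1359, 1212 and 1088 CPM at ZT16 (log2 change 1.89, SE 0.21, adjusted p = 4.2e-08). Irs2 (chr8:10984681-11008458, - strand), an adaptor of the insulin receptor, rose 3.49-fold from 11.03, 17.1, 16.3 and 13.3 CPM to 37.7, 55.8, 52.96 and 54.6 CPM (log2 change 1.74, SE 0.28, adjusted p = 5.0e-05). In both genes every ZT16 mouse exceeded every ZT12 mouse.

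Cyp26b1, an enzyme that degrades retinoic acid, rose in all ZT16 mice but unevenly (5.46 to 16.6 CPM at ZT12 and 19.8 to 84.5 CPM at ZT16, adjusted p = 0.0078), and its call was lost without mouse number 1 or 4 at both hours (adjusted p up to 0.10). Cldn5, a tight junction protein of endothelial cells, rose 3.16-fold (32.96 to 49.7 CPM at ZT12 and 108 to 167 CPM at ZT16, adjusted p = 0.00013). B3galt2, a galactosyltransferase, measured 58.1 to 90.8 CPM at ZT12 and 283 to 382 CPM at ZT16 (adjusted p = 1.5e-05). Grhl1, a transcription factor of the grainyhead family, measured 2.33 to 4.66 CPM at ZT12 and 10.7 to 14.7 CPM at ZT16 (adjusted p = 2.2e-06). The remaining large rises were Fam214a, Fam13a and Vwa3a, with log2 changes of 1.64, 1.44 and 1.33. These genes were chosen by the size of their change among called genes whose groups did not overlap, so the absence of overlap is part of the choice.

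The largest fall of a gene with a known part in fuel storage was in Ppp1r3b (chr8:35375739-35388139, + strand), which encodes a subunit that brings protein phosphatase 1 to glycogen. It fell from 785, 361, 483 and 578 CPM in the ZT12 mice to 78.3, 53.3, 88.3 and 65.6 CPM in the ZT16 mice, a mean 7.73-fold lower (log2 change -2.90, SE 0.59, adjusted p = 0.0016). Angptl8 (chr9:21835510-21837347, + strand), a feeding-induced partner of other angiopoietin-like proteins in the control of lipoprotein lipase, fell from 366, 252, 215 and 233 CPM to 43.2, 50.8, 55.8 and 71.4 CPM (log2 change -2.24, SE 0.65, adjusted p = 0.028). No ZT16 mouse reached the lowest ZT12 mouse in either gene. The call of Angptl8 was lost without ZT12 mouse 1 or 2 or ZT16 mouse 1, 2 or 3 (adjusted p up to 0.096).

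Ngfr, the low-affinity neurotrophin receptor, had the largest fitted fall, with 19.5, 63.5, 13.6 and 42.7 CPM at ZT12 against 1.16, 2.13, 3.16 and 5.76 CPM at ZT16 (log2 change -3.03, SE 0.90, adjusted p = 0.034). The ZT12 mice of Ngfr ran over a range of several-fold, and its call was lost without ZT12 mouse 1, 2 or 4 or ZT16 mouse 1, 2 or 3 (adjusted p up to 0.12). Ccnd1 (cyclin D1) fell 3.24-fold, from 82.3, 45.9, 56.7 and 49.6 CPM to 15.4, 16.5, 19.9 and 20.5 CPM (log2 change -1.62, SE 0.23, adjusted p = 1.2e-05). Gadd45a, a growth arrest gene, measured 16.9 to 31.7 CPM at ZT12 and 4.73 to 9.96 CPM at ZT16 (adjusted p = 0.006).

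Chsy1, a chondroitin sulfate synthase, measured 47.5 to 83.3 CPM at ZT12 and 16.96 to 24.2 CPM at ZT16 (adjusted p = 0.00057), and Utp14b, a factor of small ribosomal subunit processing, 8.84 to 15.4 CPM at ZT12 and 1.97 to 3.74 CPM at ZT16 (adjusted p = 6.5e-06). Smtnl2 and Gprin2 fell with log2 changes of -1.75 and -1.66. Bhlhe40 and Nfil3, also among the largest falls, are transcriptional repressors tied to the clock and are described with it. Of the 22 genes named so far for the size of their change, 19 kept their call without any 1 of the 8 libraries, Ngfr, Angptl8 and Bhlhe40 being the exceptions. Exon bases shared with a gene on the opposite strand made up 23.4% of Ccnd1, 19.4% of Txnip and 19.1% of Gadd45a, and whether the counting used strand is not given in the sources used here.

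**Figure D1:**
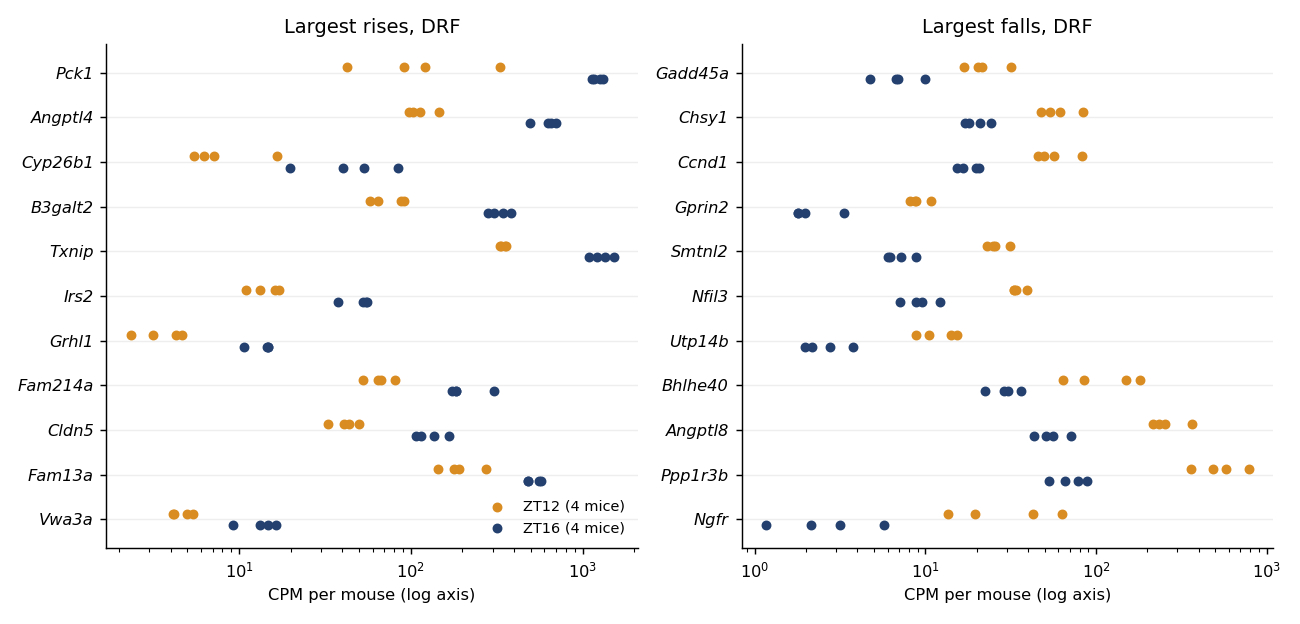
Level in each mouse (CPM, log axis) of 11 genes with large rises and 11 with large falls from ZT12 (orange, 4 mice) to ZT16 (blue, 4 mice) under DRF; each point is 1 mouse. Pck1 at ZT12 spans 42.3 to 329 CPM and at ZT16 1129 to 1322 CPM, while Txnip at ZT12 spans only 332 to 359.5 CPM.

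Promoter windows (250 bases before to 50 after the start site, RefSeq, GRCm38.p6) were found for 266 of the genes that rose, 475 of those that fell and 11382 of all tested. The FOXO letters TGTTTAC, read on both strands, were in 7.78% of 334 windows of genes that rose, 2.07% of 629 windows of genes that fell and 2.71% of 14533 windows of all tested genes (3.65% of all 32851 in the reference). The windows of Txnip, Lipe and Fmo2 hold them, 121, 119 and 28 bases before the start site. They are printed up to the start site, 5′ to 3′ on the strand of the gene and with the FOXO letters (or their complement) in capitals, because Txnip was among the largest rises, Lipe encodes hormone-sensitive lipase and Fmo2 is named for its difference from NRF mice.
Txnip, chr3:96557707-96557956, + strand: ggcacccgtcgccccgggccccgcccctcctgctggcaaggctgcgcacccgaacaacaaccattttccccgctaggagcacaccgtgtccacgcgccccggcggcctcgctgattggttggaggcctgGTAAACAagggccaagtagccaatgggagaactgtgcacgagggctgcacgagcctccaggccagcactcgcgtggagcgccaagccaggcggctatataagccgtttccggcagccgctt
Lipe, chr7:25390113-25390362, - strand: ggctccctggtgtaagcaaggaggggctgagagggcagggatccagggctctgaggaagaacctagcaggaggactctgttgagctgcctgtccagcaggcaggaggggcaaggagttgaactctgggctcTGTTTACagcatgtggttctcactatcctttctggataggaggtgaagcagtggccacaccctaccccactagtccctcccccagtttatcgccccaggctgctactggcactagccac
Fmo2, chr1:162898494-162898743, - strand: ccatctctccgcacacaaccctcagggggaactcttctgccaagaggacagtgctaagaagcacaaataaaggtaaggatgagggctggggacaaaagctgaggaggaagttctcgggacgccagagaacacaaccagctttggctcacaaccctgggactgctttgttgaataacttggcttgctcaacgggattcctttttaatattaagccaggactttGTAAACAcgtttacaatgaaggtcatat

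The window of Pck1, the gene with the largest rise, holds no FOXO letters but holds the core letters TGACG of the cyclic AMP response element on the opposite strand, 90 bases before the start site (in capitals). These shorter letters were in 28.7% of windows of genes that rose, 27.3% of those that fell and 28.9% of all tested.
Pck1, chr2:173152823-173153072, + strand: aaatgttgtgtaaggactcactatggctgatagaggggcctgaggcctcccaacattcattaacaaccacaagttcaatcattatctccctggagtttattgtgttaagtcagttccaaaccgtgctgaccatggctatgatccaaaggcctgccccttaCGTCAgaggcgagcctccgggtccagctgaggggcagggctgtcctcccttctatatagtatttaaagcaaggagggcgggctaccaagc
The full element TGACGTCA was in 1.5%, 2.70% and 2.79% of the same windows, the E-box CACGTG in 11.4%, 10.97% and 9.48%, and the glucocorticoid letters ACANNNTGT in 5.09%, 2.70% and 4.52%. The sterol letters TCACNCCAC were in 2.99%, 1.91% and 1.16%, the heat shock letters GAANNTTC in 5.69%, 5.41% and 5.75%, and the D-box TTATGTAA in 0.599%, 0.636% and 0.612%. TGACG lies within TGACGTCA, so those matches overlap. The windows of Txnip and Lipe also hold the glucocorticoid letters, 170 and 114 bases before the start site, where no capitals mark them, and in Lipe they overlap the capitals of the FOXO letters. The shares are a description, and a match is not a bound site.

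On 21 lists of fuel, clock, stress and growth genes, 25 of 458 tested genes rose (5.46%) and 33 fell (7.21%), against 2.30% and 4.0% of all genes. Among 24 tested genes of lipolysis and the lipid droplet, 3 rose and 1 fell, with a median change of 0.12 beside -0.01 over all genes. Lipe, hormone-sensitive lipase, rose from 819.7, 903, 942 and 729 CPM to 1244, 1374, 1225 and 1385 CPM (log2 change 0.63, SE 0.19, adjusted p = 0.034). G0s2, an inhibitor of adipose triglyceride lipase, fell from 277, 303, 218 and 377 CPM to 191, 145, 153 and 189 CPM (log2 change -0.78, SE 0.24, adjusted p = 0.045). The groups did not overlap in either gene, as in 2591 of all 15736 genes tested. Pnpla2, adipose triglyceride lipase itself, measured 1927 to 2659 CPM at ZT12 and 2387 to 3047 CPM at ZT16, and its change did not pass the test (log2 change 0.31, SE 0.18, adjusted p = 0.36).

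Pde3b, the phosphodiesterase through which insulin lowers cyclic AMP in fat cells, rose (173 to 245 CPM at ZT12 and 356 to 418 CPM at ZT16, adjusted p = 0.0016). Aqp7, the channel through which glycerol leaves the adipocyte, rose (72.03 to 87.3 CPM at ZT12 and 131 to 147 CPM at ZT16, adjusted p = 0.0037). Neither call was lost with any 1 library left out. Lipe lost its call without ZT12 mouse 1, 2 or 4 or ZT16 mouse 1, 2, 3 or 4 (adjusted p up to 0.10). G0s2 lost its call without ZT12 mouse 1, 2 or 4 or ZT16 mouse 1, 2, 3 or 4 (adjusted p up to 0.15).

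In the list of fatty acid uptake, 2 of 13 genes rose, Angptl4 and Acsl1, and 1 fell, Angptl8 (median 0.18). Lpl, the lipase that the angiopoietin-like proteins bear on, measured 6396 to 10659 CPM at ZT12 and 9878 to 10931 CPM at ZT16 without a call (log2 change 0.18, SE 0.20, adjusted p = 0.71). Lpl, like Fasn and Acaca, was too abundant for its exon length to be checked against whole reads. Acsl1, which activates long-chain fatty acids to acyl-CoA, had 1627, 1062, 1239 and 1091 CPM at ZT12 and 1583, 1838, 2308 and 2074 CPM at ZT16 (log2 change 0.64, SE 0.18, adjusted p = 0.025). Its groups overlapped, since ZT12 mouse 1 lay above ZT16 mouse 1, and the call was lost without ZT12 mouse 2 or 4 or ZT16 mouse 3 or 4 (adjusted p up to 0.11).

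None of 20 tested lipogenic genes was called by limma, and 1 of 20 passed at an unadjusted p under 0.05 (median 0.16). The share of all genes that pass this unadjusted threshold is not given here. Fasn, fatty acid synthase, measured 20856 to 33657 CPM at ZT12 and 31428 to 38100.5 CPM at ZT16 (log2 change 0.33, SE 0.55, adjusted p = 0.83), and Acaca, acetyl-CoA carboxylase, 3201 to 6326 CPM at ZT12 and 5271 to 6477 CPM at ZT16 (log2 change 0.33, SE 0.47, adjusted p = 0.79). Acly, ATP citrate lyase, measured 5298 to 12319 CPM at ZT12 and 8154 to 11062 CPM at ZT16 (log2 change 0.16, SE 0.79, adjusted p = 0.95). Srebf1, which encodes the transcription factor SREBP1, was lower in every ZT16 mouse, 423, 418, 475 and 514 CPM against 879, 635, 675 and 802 CPM, but did not pass the test (log2 change -0.70, SE 0.27, adjusted p = 0.12). In triglyceride synthesis and glyceroneogenesis, 2 of 18 genes rose (Pck1 and Pdk4) and Gpam fell (median 0.08).

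Pdk4, a kinase that switches off pyruvate dehydrogenase, rose from 50.8, 61.9, 67.8 and 82.1 CPM to 170.4, 142, 148 and 114 CPM (log2 change 1.12, SE 0.36, adjusted p = 0.049). Gpam, the mitochondrial acyltransferase of glycerol 3-phosphate, measured 554 to 793 CPM at ZT12 and 379 to 442 CPM at ZT16 (log2 change -0.72, SE 0.23, adjusted p = 0.049). Both stood near the threshold. Pdk4 lost its call without ZT12 mouse 1, 2, 3 or 4 or ZT16 mouse 1, 2, 3 or 4 (adjusted p up to 0.16). Gpam lost its call without ZT12 mouse 1, 3 or 4 or ZT16 mouse 1, 2, 3 or 4 (adjusted p up to 0.13). The final enzymes of triglyceride assembly gave no call, Dgat1 with 189 to 291 CPM at ZT12 and 227 to 257 CPM at ZT16 (adjusted p = 0.92) and Dgat2 with 2944 to 4381 CPM at ZT12 and 3123 to 4453 CPM at ZT16 (adjusted p = 0.96).

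Of 28 genes of cholesterol synthesis and uptake, 5 fell and none rose by limma (median -0.22, 0 of 28 higher and 7 lower at an unadjusted p under 0.05). Stard4, a carrier of cholesterol between membranes, fell from 45.02, 31.3, 39.8 and 39.3 CPM to 18.7, 18.8, 17.97 and 19.6 CPM (log2 change -1.0, SE 0.15, adjusted p = 2.5e-05). Fdps measured 2.74 to 5.19 CPM at ZT12 and 1.25 to 2.26 CPM at ZT16 (adjusted p = 0.036) and Srebf2, which encodes SREBP2, 62.4 to 72.9 CPM at ZT12 and 44.7 to 59.5 CPM at ZT16 (adjusted p = 0.0048). Hmgcs1, a synthase early in the pathway, measured 184 to 231 CPM at ZT12 and 141 to 203 CPM at ZT16, with overlapping groups and no call (log2 change -0.22, SE 0.21, adjusted p = 0.66). Srebf2 lost its call without mouse number 3 at both hours (adjusted p = 0.079). The call of Fdps was lost without ZT12 mouse 1, 2 or 4 or ZT16 mouse 2 or 3 (adjusted p up to 0.16).

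In fatty acid oxidation, 2 of 24 genes tested rose, Ppara among them, and none fell by limma (median 0.17, 4 of 24 higher and 2 lower at an unadjusted p under 0.05). Ppara, the fatty acid receptor, measured 5.20 to 6.38 CPM at ZT12 and 8.93 to 12.1 CPM at ZT16 (log2 change 0.71, SE 0.20, adjusted p = 0.021), a call lost without ZT12 mouse 1 or 3 or ZT16 mouse 2 or 3 (adjusted p up to 0.086). Cpt1a, the gate of fatty acid entry into mitochondria, was 53.99, 56.3, 50.7 and 41.6 CPM at ZT12 and 58.7, 64.5, 64.9 and 74.7 CPM at ZT16 and did not pass (log2 change 0.37, SE 0.14, adjusted p = 0.095).

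Of 29 genes of glucose uptake, glycolysis and glycogen, 2 rose and 2 fell (median 0.14). Beside Txnip, Pfkfb3, which makes the activator of phosphofructokinase, rose (183 to 429 CPM at ZT12 and 501 to 596 CPM at ZT16, log2 change 1.06, SE 0.24, adjusted p = 0.0041). Beside Ppp1r3b, the related glycogen-targeting subunit gene Ppp1r3d fell (22.2 to 28.2 CPM at ZT12 and 12.8 to 14.04 CPM at ZT16, log2 change -0.82, SE 0.20, adjusted p = 0.0074). Slc2a4, the insulin-dependent glucose transporter GLUT4, measured 310.1 to 711 CPM at ZT12 and 565 to 667 CPM at ZT16, with overlapping groups and no call (log2 change 0.26, SE 0.32, adjusted p = 0.75). Of 27 genes of insulin signalling and FOXO response, 3 rose (Irs2, Cdkn1b, Ccng2) and 3 fell (Gadd45a, Trib2, Akt1). Akt1, a kinase of the insulin signal, measured 114 to 132 CPM at ZT12 and 84.5 to 98.9 CPM at ZT16 (log2 change -0.43, SE 0.08, adjusted p = 0.00051). With a mouse number left out at both hours, calls were lost for Pfkfb3 (number 1 or 4, adjusted p up to 0.064), Ppp1r3d (number 2 or 3, up to 0.066), Trib2 (number 1, 0.079) and Gadd45a (number 1, 0.14). Cdkn1b lost its call without ZT12 mouse 1 or ZT16 mouse 2 or 3 (adjusted p up to 0.085) and without mouse number 1, 2 or 3 (up to 0.11). Ccng2 lost its call without ZT12 mouse 1 or 2 or ZT16 mouse 1, 2 or 3 (adjusted p up to 0.17).

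Among 15 tested adipokine genes, Igf1 alone was called, falling from 321, 372, 321 and 405 CPM to 170.1, 199, 222 and 266 CPM (log2 change -0.74, SE 0.16, adjusted p = 0.0034). Lep (leptin) fell short of the threshold, with 1212, 1327, 1637 and 835 CPM at ZT12 and 849.6, 526, 349.5 and 465 CPM at ZT16, where only ZT16 mouse 1 lay above the lowest ZT12 mouse (log2 change -1.23, SE 0.41, adjusted p = 0.066). Adipoq (adiponectin) was 1695 to 2235 CPM at ZT12 and 2367 to 2559 CPM at ZT16 (log2 change 0.28, SE 0.20, adjusted p = 0.48).

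Glucocorticoid-responsive genes had the highest list median, 0.35, with 3 of 19 called, all rising: Pim3, Mt1 and Mt2. Pim3, a kinase, was nearly constant at ZT12 (57.6, 58.5, 57.3 and 57.5 CPM) and higher in every ZT16 mouse (107, 135, 122 and 151 CPM, log2 change 1.13, SE 0.17, adjusted p = 1.8e-05). Mt1, a metallothionein, was 35.1, 51.8, 55.01 and 44.9 CPM at ZT12 and 149.6, 139, 51.7 and 71.9 CPM at ZT16, and the groups overlapped, since ZT16 mouse 3 lay inside the ZT12 range. Mt2 was low throughout (0.116 to 0.414 CPM at ZT12 and 0.531 to 2.73 CPM at ZT16). Mt2 shares 73.5% of its exon bases with an antisense gene model. Mt1 lost its call without ZT12 mouse 1, 2 or 4 or ZT16 mouse 1 or 2 (adjusted p up to 0.18). Mt2 lost its call without ZT12 mouse 1, 2, 3 or 4 or ZT16 mouse 1 or 2 (adjusted p up to 0.23). The call of Mt2 was also lost with quantile normalization, limma voom, no filter, a higher pseudocount or only the libraries of the contrast in the fit (adjusted p from 0.054 to 0.086). Fkbp5, a chaperone of the receptor, was 50.1, 67.6, 50.1 and 75.5 CPM at ZT12 and 230.1, 158, 66.7 and 103 CPM at ZT16 (log2 change 1.06, SE 0.36, adjusted p = 0.067), and Tsc22d3 was 68.3, 92.1, 123 and 97.7 CPM and 252, 112, 92.6 and 102 CPM (log2 change 0.45, SE 0.27, adjusted p = 0.38).

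Over all genes tested the median log2 change was -0.01, and 4.0% of genes were called as falling. The cell proliferation list had a median of -0.63, 23 of 24 genes had a log2 change below 0, and 3 fell: Ccnd1, Mcm6 and Mcm3. The last 2 encode subunits of the replicative helicase, with 19.9 to 30.96 CPM at ZT12 and 12.8 to 16.1 CPM at ZT16 for Mcm6 and 15.5 to 25.2 CPM at ZT12 and 9.32 to 13.8 CPM at ZT16 for Mcm3. The ribosome biogenesis list had 22 of 26 genes below 0 (median -0.18) and 3 falls, in Nop2 (26.1 to 31.1 CPM at ZT12 and 17.1 to 21.7 CPM at ZT16), Rrp9 and Polr1a. In the collagen and matrix list, Col6a3 (240.3 to 417 CPM at ZT12 and 151 to 210.4 CPM at ZT16), Col3a1 and Adamts1 fell of 23 tested (median -0.16). Mcm6 lost its call without ZT12 mouse 1 or 2 or ZT16 mouse 1 or 2 (adjusted p up to 0.10). Mcm3 lost its call without ZT12 mouse 1 or 2 or ZT16 mouse 1 or 2 (adjusted p up to 0.14). Nop2 lost its call without ZT12 mouse 1 or ZT16 mouse 1, 2 or 3 (adjusted p up to 0.11). Rrp9 lost its call without ZT12 mouse 1, 2 or 4 or ZT16 mouse 1, 2, 3 or 4 (adjusted p up to 0.13). Polr1a lost its call without ZT12 mouse 1, 2 or 3 or ZT16 mouse 1, 2 or 3 (adjusted p up to 0.16). Col6a3 lost its call without ZT12 mouse 1, 2 or 4 or ZT16 mouse 1, 2 or 3 (adjusted p up to 0.16). Col3a1 lost its call without ZT12 mouse 2 or ZT16 mouse 1 or 3 (adjusted p up to 0.16) and without mouse number 1, 2 or 3 (up to 0.23). Adamts1 lost its call without ZT12 mouse 1, 2 or 3 or ZT16 mouse 1, 2, 3 or 4 (adjusted p up to 0.15).

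Of 24 heat shock and cold-inducible genes, Hsp90ab1 (755 to 1086 CPM at ZT12 and 1132 to 1318 CPM at ZT16), Hspb1 and Hspa4l rose and Rbm3, a cold-inducible RNA-binding protein, fell, while Hspa1a, the inducible HSP70, a near-copy of Hspa1b between which reads can be split, measured 6.08 to 13.6 CPM at ZT12 and 5.65 to 6.66 CPM at ZT16 (adjusted p = 0.60). Of 25 genes of endoplasmic reticulum folding, Dnajb9 and Hsp90b1 rose and Atf4 fell (113 to 143 CPM at ZT12 and 60.6 to 73.2 CPM at ZT16, adjusted p = 0.0011), and Hspa5 was 382 to 477 CPM at ZT12 and 417 to 494 CPM at ZT16 (adjusted p = 0.57). Of 22 amino acid response genes, Mthfd1l fell (4.35 to 6.74 CPM at ZT12 and 1.78 to 3.44 CPM at ZT16, adjusted p = 0.0005), and Asns was 62.5 to 93.9 CPM at ZT12 and 60.9 to 70.5 CPM at ZT16 (adjusted p = 0.52). The immediate early list gave 1 call of 24, a fall of Fosl2 (81.2 to 109 CPM at ZT12 and 51.6 to 53.6 CPM at ZT16), and Fos was 3.35 to 9.27 CPM at ZT12 and 3.74 to 9.76 CPM at ZT16 (adjusted p = 0.87). Single genes were called in branched-chain amino acid catabolism (Ppm1k, rose) and autophagy (Atg14, rose), and 0 of 9 thermogenic genes by limma (1 at an unadjusted p under 0.05). Hsp90ab1 lost its call with quantile normalization (adjusted p = 0.070) and without mouse number 2 (adjusted p = 0.064) or 3 (adjusted p = 0.060) at both hours. Hspb1 lost its call without ZT12 mouse 1 or 2 or ZT16 mouse 1 or 2 (adjusted p up to 0.093). Hspa4l lost its call without ZT12 mouse 1, 2 or 3 or ZT16 mouse 1 or 3 (adjusted p up to 0.093). Rbm3 lost its call without ZT12 mouse 1 or 2 or ZT16 mouse 1, 2 or 3 (adjusted p up to 0.13). Dnajb9 lost its call without ZT12 mouse 1, 2 or 3 or ZT16 mouse 1, 2, 3 or 4 (adjusted p up to 0.16). Hsp90b1 lost its call without ZT12 mouse 1, 2 or 3 or ZT16 mouse 1, 2, 3 or 4 (adjusted p up to 0.13). Fosl2 lost its call without ZT12 mouse 2 (adjusted p up to 0.073) and without mouse number 1, 2, 3 or 4 (up to 0.13). Ppm1k lost its call without ZT12 mouse 1, 2 or 3 or ZT16 mouse 1, 2 or 3 (adjusted p up to 0.12). Atg14 lost its call without ZT12 mouse 1, 2 or 4 or ZT16 mouse 1, 2 or 3 (adjusted p up to 0.19).

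**Figure D2:**
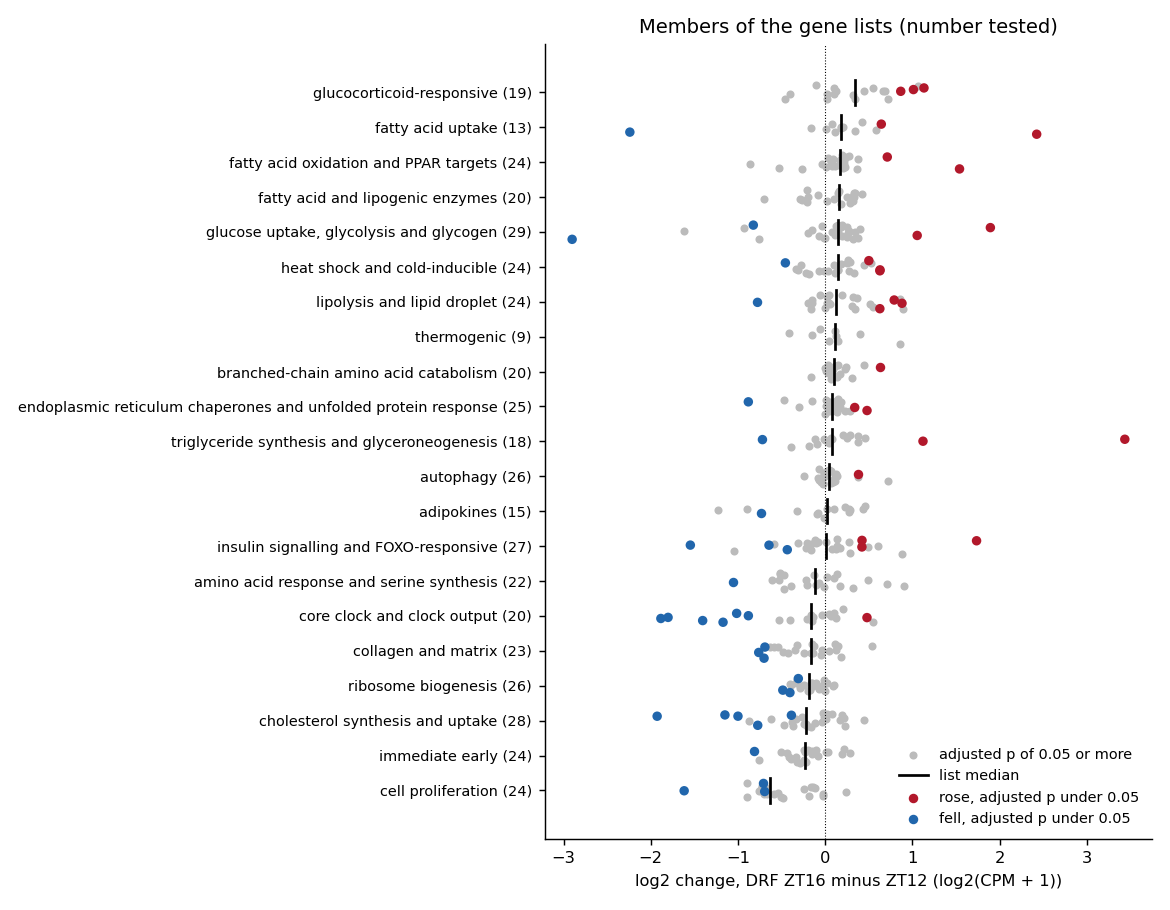
Change of every tested member of the 21 gene lists from ZT12 to ZT16 under DRF (log2(CPM + 1), DRF ZT16 minus ZT12). Points are genes, red rose and blue fell at an adjusted p under 0.05, grey did not pass, and the black bar is the list median. Medians run from -0.63 (cell proliferation) to 0.35 (glucocorticoid-responsive), and Pck1, Angptl4, Txnip and Ppp1r3b stand far outside their lists.

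The clock runs on the activators ARNTL and CLOCK, which drive their own repressors (Per and Cry genes), the nuclear receptor genes Nr1d1 and Nr1d2 that repress Arntl, and output factors such as Dbp. Of 20 clock genes, 1 rose and 6 fell from ZT12 to ZT16 under DRF (median -0.16). The falls were in Bhlhe40, Nfil3, Bhlhe41, Dbp, Ciart and Hlf, and the rise was in Rora. Nfil3, a repressor at D-box elements, fell from 32.9, 33.8, 33.2 and 39.4 CPM to 12.1, 9.60, 8.80 and 7.11 CPM (log2 change -1.80, SE 0.26, adjusted p = 1.2e-05). Dbp, an activator at the same elements, fell from 40.4, 48.7, 50.5 and 42.97 CPM to 11.5, 19.3, 24.1 and 27.5 CPM (log2 change -1.17, SE 0.28, adjusted p = 0.0056), and Hlf, its relative, fell too (22.4 to 27.1 CPM at ZT12 and 11.8 to 13.6 CPM at ZT16, adjusted p = 0.00084).

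Bhlhe40 and Bhlhe41 (DEC1 and DEC2), repressors at E-boxes, fell together. Bhlhe40 was 151, 182, 63.6 and 84.6 CPM at ZT12 and 22.4, 29.02, 36.2 and 30.6 CPM at ZT16 (adjusted p = 0.046), and Bhlhe41 25.95, 22.8, 19.97 and 14.6 CPM and 5.02, 7.84, 8.83 and 7.17 CPM (adjusted p = 0.011). Ciart was low, 1.74 to 2.85 CPM at ZT12 and 0.382 to 0.948 CPM at ZT16 (adjusted p = 0.0029), and Rora, an activator of Arntl, rose (37.7 to 43.8 CPM at ZT12 and 51.8 to 63.8 CPM at ZT16, adjusted p = 0.012). Bhlhe40 lost its call without ZT12 mouse 1, 2 or 4 or ZT16 mouse 1, 2, 3 or 4 (adjusted p up to 0.15). Bhlhe41 lost its call without ZT12 mouse 1 or ZT16 mouse 1 (adjusted p up to 0.052) and without mouse number 1 or 2 (up to 0.16). Dbp lost its call without ZT16 mouse 1 (adjusted p up to 0.053) and without mouse number 1 (up to 0.086). Rora lost its call without ZT16 mouse 3 (adjusted p up to 0.056) and without mouse number 1, 3 or 4 (up to 0.078).

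The core loop itself gave no call in DRF mice. Arntl was 16.05, 11.3, 17.6 and 14.8 CPM at ZT12 and 15.9, 10.9, 8.47 and 9.61 CPM at ZT16 (log2 change -0.40, SE 0.22, adjusted p = 0.31), and Nr1d1 43.7, 52.3, 55.6 and 55.4 CPM and 51.2, 85.1, 82.9 and 91.9 CPM (log2 change 0.55, SE 0.23, adjusted p = 0.16). Per1 measured 38.5 to 87.8 CPM at ZT12 and 31.1 to 68.9 CPM at ZT16, Per2 37.6 to 49.7 CPM at ZT12 and 30.6 to 51.3 CPM at ZT16 and Per3 42.8 to 62.2 CPM at ZT12 and 37.7 to 51.5 CPM at ZT16, with adjusted p of 0.25, 0.85 and 0.69. Cry1 measured 12.8 to 20.4 CPM at ZT12 and 14.7 to 19.02 CPM at ZT16 and Cry2 66.4 to 83.4 CPM at ZT12 and 73.9 to 76.7 CPM at ZT16 (adjusted p of 0.95 and 0.92). Clock, Npas2, Nr1d2, Tef and Nampt had log2 changes of 0.07, 0.12, -0.14, -0.15 and 0.21, none past the test.

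In NRF mice over the same hours, Arntl rose by 2.52 (SE 0.22) and Nr1d1 fell by 3.08 (SE 0.23), and the DRF change differed from the NRF change for both, by -2.93 (adjusted p = 2.7e-09) and 3.63 (adjusted p = 5.4e-11). Of the 20 clock genes, 4 had a higher and 6 a lower change under DRF than under NRF ZT12 to ZT16, against 6.16% and 9.00% of all genes. Against NRF ZT0 to ZT4, where Nr1d1 rose by 3.43 and Cry1 fell by 1.81, the change differed for 1 gene upward, Cry1 (1.85, adjusted p = 1.9e-05), and 3 downward, Nr1d1 (-2.88, adjusted p = 1.6e-07), Nr1d2 (-2.66, adjusted p = 1.9e-08) and Dbp (-2.25, adjusted p = 0.0018). Of all genes, 0.165% were higher and 0.318% lower in this comparison.

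**Figure D3:**
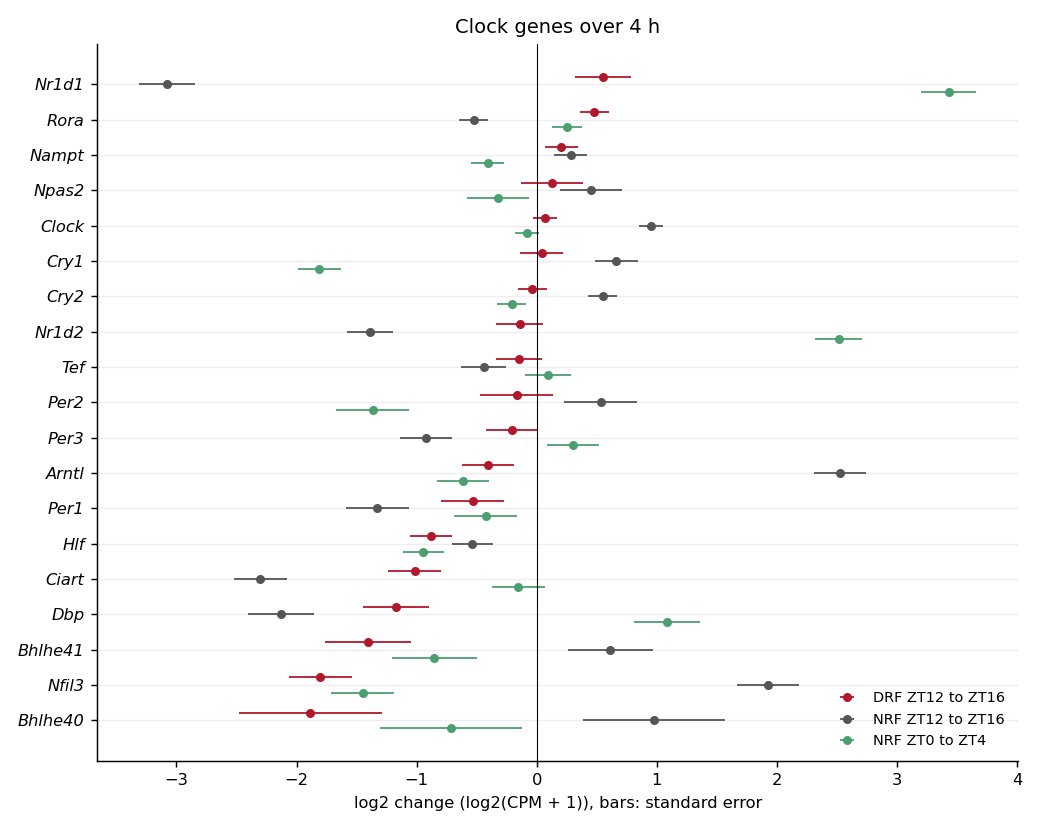
Log2 change over 4 h (log2(CPM + 1); bars, standard error of the limma fit; 4 and 4 mice per change) of 19 clock genes in DRF mice from ZT12 to ZT16 (red), NRF mice from ZT12 to ZT16 (grey) and NRF mice from ZT0 to ZT4 (green). Nr1d1 lies at 0.55 in DRF, -3.08 in NRF over the same hours and 3.43 in NRF after food withdrawal, while Nfil3 and Hlf fall in DRF and in NRF after food withdrawal.

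Over the same hours of the light-dark cycle the genes that changed in DRF mice tended to change the other way in NRF mice, which share no library with them. Of the 362 genes that rose under DRF, 251 (69.3%) had a lower level at ZT16 than at ZT12 under NRF, and of the 629 that fell, 487 (77.4%) had a higher one, where 49.6% and 50.4% of all 15736 genes did. Of the 362, 111 were called as falling and 19 as rising in NRF mice (30.7% and 5.25%, background 6.65% and 7.13%), which is 10.6% of the 1046 NRF falls. Of the 629, 198 were called as rising and 20 as falling (31.5% and 3.18%), which is 17.6% of the 1122 NRF rises. Across all genes the 2 changes had a Pearson r of -0.28, with genes as points that share their libraries. In all 13.8% of genes were called in NRF mice over these hours.

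The difference between the DRF and the NRF change was past the threshold for 2385 genes (15.2%), 969 higher and 1416 lower under DRF. Pck1 differed most, with 146 ± 127 and 1221 ± 88.4 CPM under DRF and 2005 ± 838 and 287 ± 219 CPM under NRF (mean ± SD, n = 4 each, at ZT12 and ZT16). The difference was 6.43 (SE 0.91, adjusted p = 2.1e-06). Ppp1r3b moved the other way in each regimen, 552 ± 179 and 71.3 ± 15.2 CPM under DRF and 51.7 ± 31.7 and 543 ± 206 CPM under NRF, a difference of -6.33 (SE 0.84, adjusted p = 5.8e-07). Angptl8 went from 29.9 ± 6.93 to 286 ± 163 CPM under NRF, a difference of -5.07 (adjusted p = 8.1e-05).

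Osgin1, an oxidative stress response gene, and Mid1ip1, whose product promotes the activity of acetyl-CoA carboxylase, were among the 10 largest differences of genes with a mean of at least 5 CPM and no overlap between the DRF hours, without being among the largest falls. Osgin1 fell from 40.1, 27.1, 27.2 and 26.6 CPM to 15.8, 13.04, 9.03 and 13.8 CPM under DRF and rose by 2.74 on the log2 scale under NRF. Mid1ip1 fell from 319.9, 160.3, 184 and 219 CPM to 81.4, 64.2, 79.3 and 92.3 CPM and rose by 2.44 under NRF. The call of its fall under DRF was lost without ZT12 mouse 1 (limma adjusted p = 0.052) and without mouse number 1 at both hours (0.098). Others of the 10 were B3galt2 (3.49), Nfil3 (-3.73), Smtnl2 (-4.36) and Gprin2 (-3.83). The 9 named here (with Pck1, Ppp1r3b and Angptl8) kept the call of their difference from NRF with any 1 of the 16 libraries left out. Some genes changed the same way in both regimens by night. Dbp and Ciart fell in both (by 2.13 and 2.30 under NRF), and Fmo2 and Itga11 rose in both.

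In the hours after food was taken away by day the direction was shared. From ZT0 to ZT4 under NRF, 293 of the 362 genes that rose in DRF mice had a higher level (80.9%, all genes 51.3%), and 454 of the 629 that fell had a lower one (72.2%, all genes 48.7%). With 1 of these 8 NRF libraries left out, the shares ran from 75.7% to 83.7% and from 69.5% to 80.4%. The median NRF change was 0.18 for the 362 genes and -0.13 for the 629, which were chosen by their change under DRF. In NRF mice 56 genes rose and 100 fell over these hours (0.991% in all, 0.356% and 0.635% of genes), of which 15 and 28 were also called in the same direction under DRF (26.8% and 28.0% of the NRF lists, 4.14% and 4.45% of the DRF lists). In the opposite direction, 3 of the 362 were called as falling and 1 of the 629 as rising (0.83% and 0.16%). The number of NRF calls rested on single libraries, from 8 without NRF ZT0 mouse 3 to 949 without NRF ZT0 mouse 1. It was 11 without NRF ZT0 mouse 2, 70 without NRF ZT0 mouse 4, 401 without NRF ZT4 mouse 1, 11 without NRF ZT4 mouse 3 and 10 without NRF ZT4 mouse 4.

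**Figure D4:**
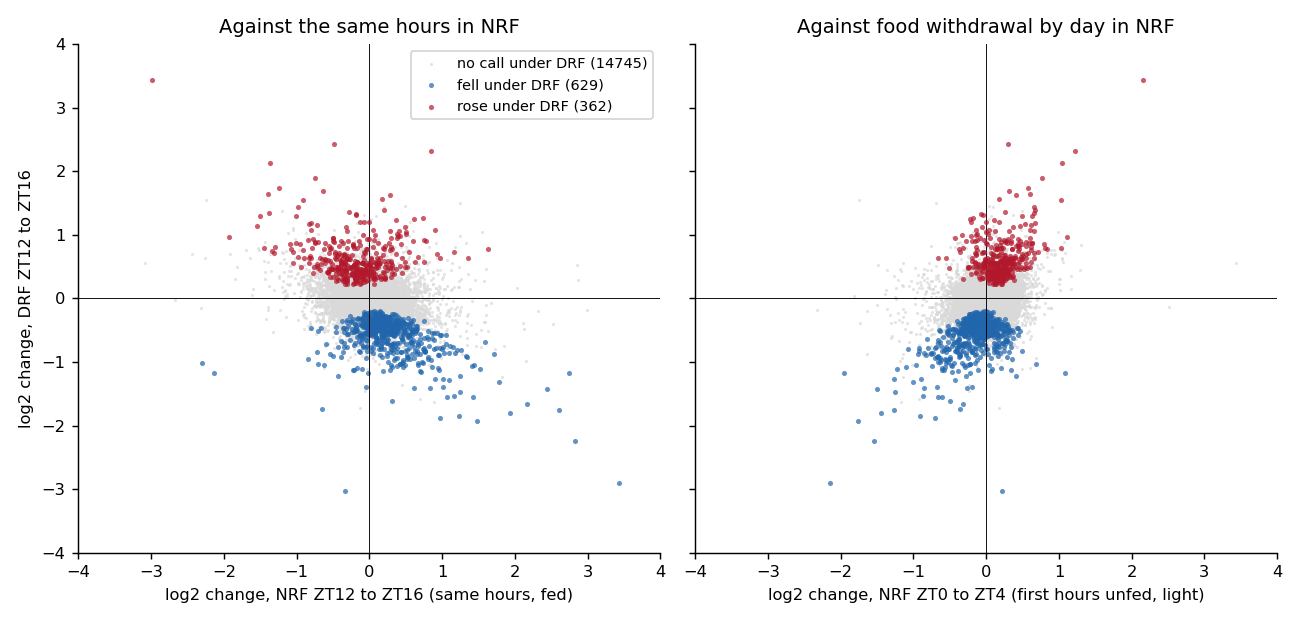
Log2 change from ZT12 to ZT16 under DRF (y axis) of each tested gene against its change under NRF over the same hours (left) and under NRF from ZT0 to ZT4, after food withdrawal (right); red genes rose and blue genes fell under DRF, grey were not called. The red and blue clouds lean to opposite sides on the left (69.3% and 77.4% of the other sign) and to the same side on the right (80.9% and 72.2% of the same sign).

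In both regimens food was taken away as the lights changed, off at ZT12 under DRF and on at ZT0 under NRF, so that food, light and hour cannot be told apart in these changes or in their difference. The DRF change from ZT12 to ZT16 and the NRF change from ZT0 to ZT4 differed for 76 genes (0.483%), 26 higher and 50 lower under DRF (0.165% and 0.318%). Angptl4 was among them: it rose 5.39-fold by night under DRF, and under NRF it went from 418 ± 224 CPM at ZT0 to 476 ± 163 CPM at ZT4, a difference of 2.13 (SE 0.45, adjusted p = 0.016). The NRF ZT0 mice were split, with 620.0, 304, 159 and 589 CPM of Angptl4 in mice 1 to 4, against 500.0, 240.0, 604 and 561 CPM at ZT4 and 352, 149, 161 and 229 CPM at ZT24. Mice 1 and 4, the high ones, also had the highest Pck1 of that group (1452, 265, 58.8 and 743 CPM in mice 1 to 4) and the highest Irs2 (67.6, 34.5, 19.6 and 58.8 CPM), so the small NRF change of Angptl4 rests on a ZT0 mean that these 2 mice raise. Dbp fell under DRF and rose under NRF from 5.35 ± 1.41 to 12.3 ± 1.70 CPM, a difference of -2.25 (SE 0.39, adjusted p = 0.0018). Mapk6, which encodes the kinase ERK3, fell from 205, 249, 187 and 207 CPM to 98.8, 63.6, 88.8 and 70.7 CPM under DRF and was 148 ± 38.9 and 126 ± 12.5 CPM under NRF (-1.21, adjusted p = 0.023). Fmo2, a flavin-containing monooxygenase, rose from 66.4, 72.6, 96.1 and 58.1 CPM to 215, 171, 168 and 149 CPM and was 47.99 ± 20.5 and 40.4 ± 10.5 CPM under NRF (1.44, adjusted p = 0.027).

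By the same limits 10 genes were named for this difference, which leaves out Nr1d1, Nr1d2 and Cry1. Those not yet described were Grhl1 and Itga11, a collagen-binding integrin, with higher changes under DRF (1.38 and 1.23), and Cybrd1, Mfap2, Cdc25b and C1qtnf6 with lower ones (-1.72, -1.45, -1.36 and -1.32). Of the 10, Angptl4 and Dbp alone kept their call with any 1 of the 16 libraries left out, and Angptl4 lost it without mouse number 1, 2 or 4 in the 4 groups (adjusted p from 0.099 to 0.12). The highest adjusted p of the rest ran from 0.065 for Cdc25b to 0.17 for C1qtnf6, and NRF ZT4 mouse 4 was among the libraries whose absence cost each of these 8 calls. The count of 76 fell to 19 without that mouse, to 28 without DRF ZT12 mouse 2 and to 36 without DRF ZT16 mouse 1, and rose to 133 without DRF ZT12 mouse 4 and to 153 without NRF ZT4 mouse 1. With only the 16 libraries of this comparison in the fit, 14 genes differed and of the 10 only Dbp kept its call (Angptl4 adjusted p = 0.13), and with NRF ZT24 in place of ZT0 291 genes differed and Angptl4 had a difference of 1.33 (adjusted p = 0.11). Pck1 and Ppp1r3b did not differ past the threshold, with differences of 1.28 (SE 0.91) and -0.75 (SE 0.84) and adjusted p of 0.66 and 0.81. Of the 24 heat shock and cold-inducible genes, 7 had a higher and 0 a lower change under DRF than under NRF ZT0 to ZT4. The shares of all genes were 0.165% and 0.318%. Against NRF ZT12 to ZT16, 1 of the 24 was higher and 12 were lower, where 6.16% and 9.00% of all genes were.

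The levels reached at ZT16 were set beside those later in the same night. Pck1 went on to 2049 ± 685 CPM at ZT20 and 2215 ± 577 CPM at ZT24 (mean ± SD, n = 4), above 1221 ± 88.4 CPM at ZT16. Angptl4 had its highest mean of the night at ZT16, with 620.3 ± 91.6 CPM against 575 ± 65.8 and 449 ± 39.1 CPM, and so had Txnip, with 1294 ± 185 CPM against 1208 ± 197 and 909.6 ± 142 CPM. For Angptl4 and Txnip the ZT16 and ZT20 means lay within 1 SD of each other. Cyp26b1 was back at 10.1 ± 2.05 CPM at ZT20, near its ZT12 mean of 8.84 ± 5.20 CPM. Ppp1r3b stayed low, with 51.7 ± 26.3 and 81.6 ± 46.3 CPM. The DRF mice collected at ZT0, the same clock hour as ZT24, differed from those at ZT24. They had 153 ± 91.4 CPM of Ppp1r3b, 280 ± 155 CPM of Angptl4, 1595 ± 303 CPM of Pck1 and 797 ± 88.6 CPM of Txnip. The levels at ZT20, ZT24 and ZT0 are given as a description and were not tested.

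**Figure D5:**
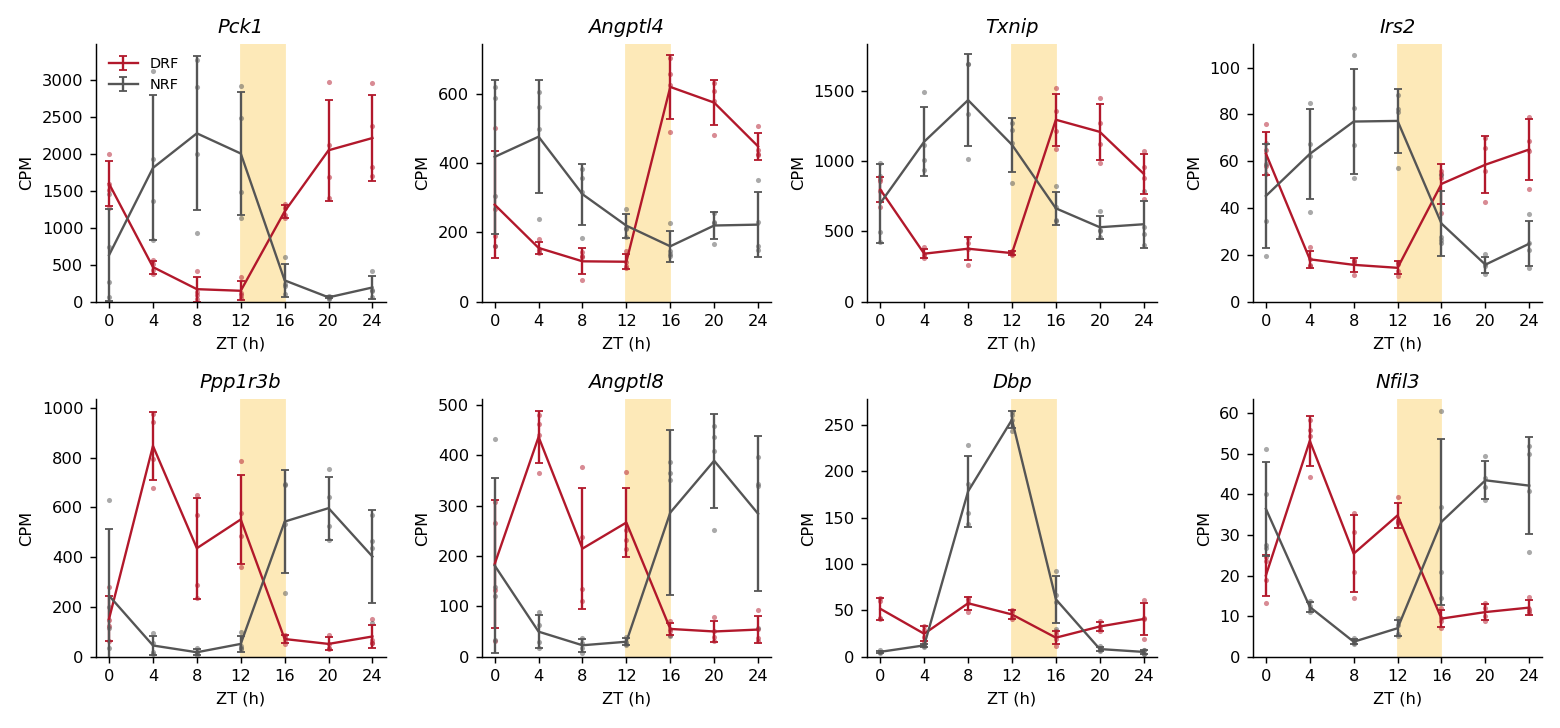
Level (CPM, linear axis from 0) over ZT 0 to 24 h of 8 genes under DRF (red) and NRF (grey); points are mice, lines join group means and bars are the SD of 4 mice, and the shaded band is ZT12 to ZT16. Inside the band Pck1, Angptl4, Txnip and Irs2 climb under DRF and Ppp1r3b, Angptl8, Dbp and Nfil3 drop; under NRF, Pck1, Txnip, Irs2 and Dbp drop there, Ppp1r3b, Angptl8 and Nfil3 climb, and Angptl4 moves from 219 ± 34.9 to 159.7 ± 45.4 CPM.

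Markers of other cell types were set beside these changes, over the same 8 mice. The summed adipocyte markers overlapped between the hours (26254 ± 2890.2 CPM at ZT12 and 29903 ± 2035 CPM at ZT16, SD, n = 4, 2-sided exact permutation p = 0.057, where 4 against 4 mice allow 0.029 at the least). Summed endothelial markers did not overlap, 1074 to 1149.9 CPM at ZT12 and 1168 to 1416 CPM at ZT16 (exact permutation p = 0.029). Without Cldn5 the endothelial sum was 1024 to 1106 CPM at ZT12 and 1041 to 1249 CPM at ZT16 (exact permutation p = 0.46). The sum of ovary markers was lower at ZT16 (12.6 to 13.6 CPM at ZT12 and 7.13 to 12.02 CPM at ZT16, exact permutation p = 0.029). Star, a gene of steroid synthesis that was itself called as falling, made up 65.4% of this sum. Of the 8 ovary markers measured, 4 were higher on average at ZT16, and the sum was not tested without Star. The permutation p-values were not adjusted over the 14 marker lists.

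Of the other lists, progenitor markers summed to 2086 to 2583 CPM at ZT12 and 2140.3 to 2559.9 CPM at ZT16, macrophage markers to 972 to 1336 CPM at ZT12 and 1023 to 1443 CPM at ZT16 and mesothelial markers to 380.2 to 466 CPM at ZT12 and 431 to 725 CPM at ZT16, with overlapping groups and exact permutation p of 0.86, 0.43 and 0.37. Lymphocyte markers were low, 65.7 to 111 CPM at ZT12 and 78.2 to 96.8 CPM at ZT16 for B cells, mostly Ighm, and 13.1 to 18.2 CPM at ZT12 and 16.4 to 20.2 CPM at ZT16 for T cells. Skeletal muscle markers summed to 6.60 to 80.5 CPM at ZT12 and 14.8 to 486 CPM at ZT16, with the highest value in ZT16 mouse 2, and 9 of the 9 measured were higher on average at ZT16 (exact permutation p = 0.26). Red cell markers were 299 to 863 CPM at ZT12 and 262 to 539 CPM at ZT16, and liver markers, mostly Cyp2e1, 991 to 2306 CPM at ZT12 and 1991 to 3806 CPM at ZT16 (exact permutation p of 0.43 and 0.11). Neutrophil, pancreas and uterine lists gave 16.2 to 20.2 CPM at ZT12 and 17.5 to 53.8 CPM at ZT16, 21.3 to 32.8 CPM at ZT12 and 19.8 to 29.9 CPM at ZT16 and 74.5 to 96.999 CPM at ZT12 and 73.4 to 150.1 CPM at ZT16 (exact permutation p of 0.34, 0.63 and 0.71). The part of any of these cells in the changes above was not tested.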

How the data were processed

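Polyadenylated RNA of VAT was sequenced in 56 mice (14 groups of 4), of which the 8 DRF mice at ZT12 and ZT16 carry this comparison and NRF mice at ZT0, ZT4, ZT12 and ZT16 serve for reference. The submitters' processing notes name HISAT2 2.0.5, featureCounts 1.5.0-p3 and mm10. The authors deposited 1 table of a normalized score, named TPM there, and how it was made is not given in the sources used here. By the values it is log2(CPM + 1) divided by exon length and rescaled in each library, with CPM taken over an effective library size that differs from the total of reads. It was turned back into CPM and whole reads with GENCODE M21 exon lengths: 99.9998% of 1262086 values up to 10000 reads were whole within 0.02 reads (4% by chance). A gene entered this share only where nearly all its values were whole, so the share is not an independent check. With the annotated length, 24856 of 25939 genes met that condition. For 880 genes the length came from the values themselves, chosen so that they were whole. For 16 abundant genes, Lpl, Fasn and Acaca among them, the annotated length was used without this check, so an error in it would change their levels and fold changes. A further 2 genes (Pcx and Scd1) could not be resolved and were left out, which gave 25937 of 25939 genes. The 8 libraries held 33.4 to 41.02 M reads.

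Genes with a mean of at least 0.5 CPM over the 56 libraries (15736) were tested with limma 3.58.1 (R 4.3.3, trend and robust) on log2(CPM + 1) with 14 group means, and p-values were adjusted after Benjamini-Hochberg over all of them, with a threshold of 0.05. Fold changes on this scale understate those of low genes. The contrasts were DRF ZT16 minus ZT12, and this change minus that of NRF over ZT12 to ZT16 or ZT0 to ZT4. Summed marker lists were compared with exact permutation tests. The procedure was tested on simulated data. Mouse numbers in the labels name no shared animal or batch. Named were the 12 largest rises and falls with a mean of at least 5 CPM, a named locus and no overlap between the hours, the defining genes of each list and up to 4 called members, and the 10 largest differences from each NRF change under the same limits. Some genes that the rule names are not reported here by name, and counts over genes and lists include them. The samples, lists and rules were chosen with earlier results of these data known. Alternatives were other scalings, pseudocounts, filters, libraries in the fit, limma voom, a fit without trend, a replicate block and leaving out mice. Promoter windows came from RefSeq (GRCm38.p6).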

Additional observations from a re-analysis of the deposited data

Results flagged for a closer look

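Single mice stood apart from the other 3 of their hour in 22 of 236 sets of 4 values checked (9.32%, where chance gives about 1 in 20), by a gap to the nearest mouse beyond Dixon's 95% critical value for that gap over the range. At ZT12 the highest mouse stood apart for Cyp26b1 (16.6 CPM), Nfil3 (39.4 CPM), Hspa1a (13.6 CPM), Hspa5 (477 CPM), Dnajb9 (61.2 CPM), Nop2 (31.1 CPM), Col3a1 (2174 CPM), Osgin1 (40.1 CPM), Mfap2 (17.2 CPM), C1qtnf6 (33.9 CPM) and Itga11 (10.1 CPM), and the lowest for Lpl (6396 CPM). At ZT16 the highest stood apart for Fam214a (306 CPM), Gprin2 (3.35 CPM), Tsc22d3 (252 CPM), Mfap2 (5.84 CPM), summed mesothelial markers (725 CPM) and summed neutrophil markers (53.8 CPM), and the lowest for Irs2 (37.7 CPM), Grhl1 (10.7 CPM), Dnajb9 (58.3 CPM) and Itga11 (13.1 CPM).

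The change under DRF differed from that of NRF over the same hours for 2385 genes, by a test of the difference itself. Among the named genes the log2 difference was 6.43 for Pck1 and 3.49 for B3galt2. It was -6.33 for Ppp1r3b, -5.07 for Angptl8, -4.36 for Smtnl2, -3.91 for Osgin1, -3.87 for Mid1ip1, -3.83 for Gprin2 and -3.73 for Nfil3.

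It differed from the NRF change from ZT0 to ZT4 for 76 genes. The log2 difference was 2.13 for Angptl4, 1.44 for Fmo2, 1.38 for Grhl1 and 1.23 for Itga11. It was -2.25 for Dbp, -1.72 for Cybrd1, -1.45 for Mfap2, -1.36 for Cdc25b, -1.32 for C1qtnf6 and -1.21 for Mapk6. The cause of these differences was not tested.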

How the results depend on the processing

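The count of 991 genes changed under DRF lay between 815 and 1345 under 10 other settings and was 1548 without the 2 DRF libraries of other hours that stood apart. It ran from 313 to 885 with a mouse number or a single mouse left out. The count that differed from NRF ZT12 to ZT16 (2385) lay between 2125 and 3197 under the other settings, and from 1295 to 2433 with mice left out. The count that differed from NRF ZT0 to ZT4 (76) was 14 with only the 16 libraries of the contrast in the fit, 245 without the 2 DRF libraries apart and 291 with NRF ZT24 in place of ZT0, and ran from 18 to 153 with mice left out. The cause of these shifts was not tested. With the mouse number as a replicate block the counts were 1093, 2561 and 76. The numbers did not pair the mice: deviations of same-numbered DRF mice correlated from -0.06 to 0.18, and 2 of 4 correlated best with their own number. Rises and falls numbered 362 and 629, against 399 and 499 with quantile normalization, 394 and 536 with median-of-ratios scaling, 210 and 260 without mouse number 3, 92 and 221 without mouse number 1 and 163 and 357 without ZT12 mouse 1. Named calls from ZT12 to ZT16 were also lost with quantile normalization (Bhlhe40, Pdk4, Mt2, Hsp90ab1, Hsp90b1, Nop2, Rrp9, Polr1a, Mcm3, Col6a3 and Adamts1), median-of-ratios scaling (Gpam, Polr1a and Adamts1), limma voom (Ngfr, Pdk4, Gpam, Fdps, Mt2, Dnajb9, Rrp9, Atg14 and Adamts1), no filter (those lost with voom, and Bhlhe40, G0s2, Mt1, Hsp90b1, Polr1a, Col6a3 and Ccng2), the higher pseudocount (Bhlhe40, Gpam, Mt2, Dnajb9 and Atg14), the lower one (Fdps), the fit without trend (Dnajb9), the libraries of the contrast alone (Mt1 and Mt2) and the replicate block (Mt2, adjusted p = 0.052 by limma). No called value reversed its direction under these settings. Of 22 named large changes, 17 kept their call with any mouse number left out and 20 under up to 11 other settings (Bhlhe40 and Ngfr lost it, and Gprin2 was not tested with the filter of 5 CPM). Every named call from ZT12 to ZT16 that was lost without a single mouse was also lost without at least 1 mouse number at both hours, with highest adjusted p by limma from 0.078 for Rora to 0.41 for Mt1. Single mice left out were chosen after seeing the data. Levels near 1 read (0.0230 to 0.0294 CPM) are limited by depth.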

Other observations

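Some values were picked after they were seen and carry no test. Tsc22d3, Fkbp5 and Mt1 each had their highest value of the 8 mice in ZT16 mouse 1, with 252, 230.1 and 149.6 CPM. Summed skeletal muscle markers were 486 CPM in ZT16 mouse 2, and neutrophil markers 53.8 CPM in ZT16 mouse 3.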
